A study of Mus musculus with 12 samples.

Results

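The 10 genes described here mark the endothelium, the cell layer lining blood vessels, and were followed in the root-forming part of the mouse molar. They were Kdr, Flt1, Pecam1, Cdh5, Tek, Tie1, Emcn, Cldn5, Sox17 and Sox18. They were chosen by gene symbol, and all 10 were found among the 25899 genes of the expression table. The samples were 12 RNA-seq libraries of total RNA from C57BL/6 mice at postnatal day 4, each made from the apical portion of a lower first molar germ. Of these, 6 came from mice labelled Nfic-/-, homozygous for a mutation of the transcription factor gene Nfic, and 6 from Nfic+/- littermates. The controls were heterozygous, so they also carried 1 mutant copy, and no wild-type group was used here. Libraries are named below by genotype and by the number in their title, 5 to 10 in each genotype. The values are RPKM, reads scaled to gene length and to the mapped reads of the library.

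Endothelial cells receive growth signals through VEGF receptors, of which Kdr carries most of the signal and Flt1 binds the ligand tightly and limits it. Tek and Tie1 form the angiopoietin receptor system that steadies mature vessels, Cdh5, Pecam1 and Cldn5 hold neighbouring cells together, and Emcn coats the surface of veins and capillaries. Sox17 and Sox18 are transcription factors of developing vessels, and in the molar, capillaries of the dental papilla and of the follicle lie close to the odontoblasts that build dentin.

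The targeted gene was read first. Nfic was 16.8 ± 4.42 RPKM (SD, n = 6) in the Nfic+/- libraries and 11.4 ± 3.02 RPKM (SD, n = 6) in the Nfic-/- libraries. The difference in log2(RPKM + 1) was -0.52 (SE 0.178, adjusted p = 0.934 in limma after Benjamini-Hochberg correction), and the groups overlapped, so the Nfic level did not separate the labelled genotypes. Depth, estimated from the values of genes without reads, ran from 70.2 to 96.4 M reads per library. Genes of the enamel-forming dental epithelium and of the dental mesenchyme were both abundant, with Amelx at 28240 to 106179 RPKM, so the libraries held both tissues of the tooth germ. Libraries 8 and 9 of both genotypes also held intestinal transcripts: the 11 listed intestinal genes summed to as much as 331 RPKM, against medians of 0.415 RPKM in the Nfic+/- group and 0.234 RPKM in the Nfic-/- group.

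All 10 are protein-coding genes, and their positions are given in GRCm38 from GENCODE M21. The VEGF receptor genes share a chromosome, with Kdr at chr5:75932827-75978458 (minus strand) and Flt1 at chr5:147561604-147726011 (minus strand). The angiopoietin receptor family genes share another, with Tek at chr4:94739289-94874976 (plus strand) and Tie1 at chr4:118471191-118490061 (minus strand). The adhesion and surface genes lie apart, with Pecam1 at chr11:106654217-106750628 (minus strand), Cdh5 at chr8:104101625-104144511 (plus strand), Cldn5 at chr16:18776847-18778262 (plus strand) and Emcn at chr3:137341067-137432185 (plus strand). The SOX genes are short, with Sox17 at chr1:4490931-4497354 (minus strand) and Sox18 at chr2:181669836-181671640 (minus strand).

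Promoter sequence was available from RefSeq (GRCm38.p6) for 6 of the 10 genes, namely Kdr, Flt1, Tek, Tie1, Emcn and Cldn5. The windows reach from 250 bases before to 50 bases after the annotated start. The 250 bases before the start are shown for both VEGF receptors and both angiopoietin receptor family genes, and for Cldn5, which differed most from them in the motif searched. They are written 5′ to 3′ on the strand of the gene. Capitals mark GGAA or its reverse complement TTCC, the core that ETS-family factors bind.
Kdr, chr5:75978456-75978705, minus strand: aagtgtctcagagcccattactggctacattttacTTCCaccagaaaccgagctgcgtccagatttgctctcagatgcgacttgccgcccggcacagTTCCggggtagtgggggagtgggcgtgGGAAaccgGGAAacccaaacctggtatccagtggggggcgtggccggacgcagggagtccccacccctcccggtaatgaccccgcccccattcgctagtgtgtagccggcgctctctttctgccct
Flt1, chr5:147726012-147726261, minus strand: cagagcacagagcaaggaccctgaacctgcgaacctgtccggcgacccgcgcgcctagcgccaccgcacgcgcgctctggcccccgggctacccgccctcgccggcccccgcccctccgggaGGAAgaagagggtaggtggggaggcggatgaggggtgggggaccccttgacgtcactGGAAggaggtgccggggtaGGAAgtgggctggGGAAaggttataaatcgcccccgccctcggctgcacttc
Tek, chr4:94739039-94739288, plus strand: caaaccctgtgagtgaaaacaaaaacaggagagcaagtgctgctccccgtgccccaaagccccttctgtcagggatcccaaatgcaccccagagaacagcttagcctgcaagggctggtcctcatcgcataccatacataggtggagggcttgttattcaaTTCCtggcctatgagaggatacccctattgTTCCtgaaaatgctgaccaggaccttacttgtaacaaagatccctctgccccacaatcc
Tie1, chr4:118489850-118490099, minus strand: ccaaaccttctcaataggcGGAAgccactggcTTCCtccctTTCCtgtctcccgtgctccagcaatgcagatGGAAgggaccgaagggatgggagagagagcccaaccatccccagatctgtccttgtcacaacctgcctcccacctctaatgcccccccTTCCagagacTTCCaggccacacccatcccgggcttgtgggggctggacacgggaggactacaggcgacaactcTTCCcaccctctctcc
Cldn5, chr16:18776597-18776846, plus strand: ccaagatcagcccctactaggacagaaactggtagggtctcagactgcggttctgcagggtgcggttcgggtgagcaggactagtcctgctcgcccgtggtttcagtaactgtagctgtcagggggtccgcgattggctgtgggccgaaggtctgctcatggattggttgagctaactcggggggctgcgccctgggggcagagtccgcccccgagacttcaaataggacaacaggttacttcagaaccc

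Counted over both strands of the full 300-base windows, GGAA occurred 9 times at Tie1, 6 at Emcn, 5 at Kdr, 4 at Flt1, 2 at Tek and 0 at Cldn5. Of all 32851 windows in the table, 96.0% held it at least once, with a median of 3, 1.59% held it 9 or more times and 4.02% did not hold it. The longer forms, which contain GGAA, were rarer: CCGGAA occurred once at Kdr (14.9% of all windows hold it), and CAGGAA occurred at Tek, Tie1 and Emcn (30.6% of all windows). The full palindrome bound by NFI proteins, the family of Nfic, pairs TTGGC with its reverse complement across a spacer. It occurred in none of the 6 windows and in 0.0365% of all windows. TTGGC alone, a part of that palindrome, occurred once each at Emcn and Cldn5, and in 46.7% of all windows. The SOX motif ACAAT occurred 2 times at Tek and once at Emcn (31.0% of all windows), and the GATA motif AGATAA once at Tek (11.2%). TATAAA occurred once at Flt1 (13.6% of all windows), and the FOX motif TGTTTA in none of the 6 (13.4%). These letters describe the windows only, and binding was not measured.

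Averaged over the 12 libraries, Cdh5 was the most abundant of the 10 genes at 10.3 ± 3.64 RPKM (SD, n = 12). It was followed by Cldn5 (8.52 RPKM), Sox18 (7.79 RPKM), Pecam1 (6.44 RPKM), Tie1 (4.70 RPKM), Kdr (2.92 RPKM), Tek (2.63 RPKM), Emcn (2.33 RPKM), Sox17 (1.13 RPKM) and Flt1 (1.06 RPKM). RPKM is scaled by gene length, with lengths not given in the sources used here, so the order rests on the authors' annotation. Neighbours were compared library by library. Pecam1 exceeded Tie1, Tie1 exceeded Kdr and Emcn exceeded Sox17 in 12 of 12 libraries. The other neighbours changed places in at least 1 library. Cldn5 exceeded Sox18 in 7 of 12, so that pair had no fixed order.

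**Figure D1:**
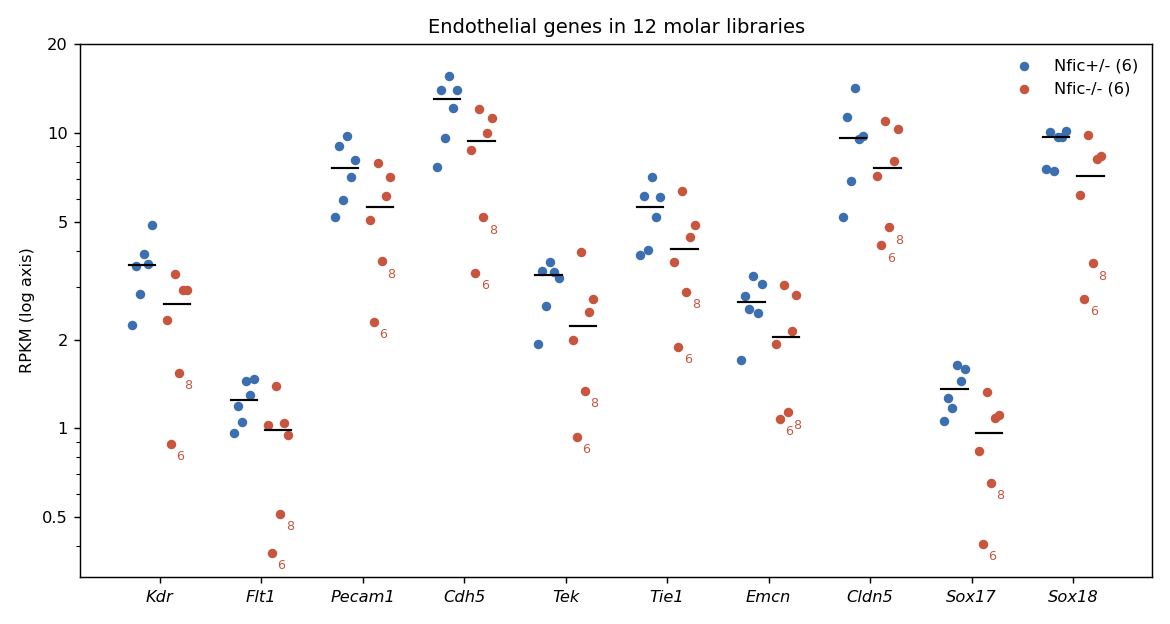
Level of each of the 10 endothelial genes in RPKM (vertical axis, log scale) in every library, with Nfic+/- and Nfic-/- libraries side by side and a line at each group median. The groups overlap for each gene, and Nfic-/- libraries 6 and 8 lie lowest throughout.

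The comparison of Nfic-/- with Nfic+/- libraries asked whether endothelial transcripts differ between the 2 labelled genotypes. All 10 genes had a lower mean in the Nfic-/- libraries, and none passed the test: 0 of 10 had an adjusted p under 0.05 (limma, Benjamini-Hochberg over 12094 genes), where 0% of all tested genes did. An unadjusted p under 0.05 with a lower level was reached by 3 of 10 genes, Sox17, Kdr and Sox18, against 2.72% of all tested genes. A difference below 0 was seen in 10 of 10, against 51.1% of all tested genes, and 0 of 10 had every Nfic-/- library below every Nfic+/- library, against 0.0331%. The levels of the 10 genes varied together over the same libraries, as described below, so these counts are not 10 separate observations. The median difference in log2(RPKM + 1) was -0.38 over the 10 genes and -0.003 over all tested genes. Whole-tissue levels cannot tell a difference in the share of endothelial cells from a difference in RNA per endothelial cell, and neither was measured.

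Among the VEGF receptors, Kdr ran from 2.25 through a median of 3.57 to 4.87 RPKM in the Nfic+/- libraries and from 0.889 through 2.64 to 3.34 RPKM in the Nfic-/- libraries. Libraries 6 and 8 of the Nfic-/- group lay under every control, while the other 4 fell inside the control range and under its median. The Kdr difference was -0.47 in log2(RPKM + 1) (SE 0.201, 95% interval -0.90 to -0.03, adjusted p = 0.934 in limma after Benjamini-Hochberg correction). Flt1 ran from 0.964 through 1.25 to 1.47 RPKM in the controls and from 0.379 through 0.988 to 1.40 RPKM in the Nfic-/- libraries. For Flt1, 3 Nfic-/- libraries (6, 8 and 10) lay below the lowest control and 1, library 7, above the control median. Its difference was -0.27 in log2(RPKM + 1) (SE 0.133, 95% interval -0.55 to 0.02). Adding 1 RPKM shrinks the differences of genes near that level, and with 0.1 RPKM added the Flt1 difference was -0.53. The ratio of Kdr to Flt1 RPKM was 2.80 ± 0.325 (SD, n = 6) in the controls and 2.65 ± 0.364 (SD, n = 6) in the Nfic-/- libraries, a gap smaller than the spread in either group.

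Tek, the angiopoietin receptor, ran from 1.93 through 3.30 to 3.66 RPKM in the controls and from 0.934 through 2.23 to 3.94 RPKM in the Nfic-/- libraries. Its highest value was in an Nfic-/- library, number 7, and Tek was alone among the 10 genes in that. The Tek difference was -0.37 in log2(RPKM + 1) (SE 0.201, 95% interval -0.80 to 0.07). Tie1, its partner without a strong ligand of its own, ran from 3.86 through 5.63 to 7.11 RPKM in the controls and from 1.88 through 4.05 to 6.35 RPKM in the Nfic-/- libraries. Nfic-/- libraries 5, 6 and 8 lay below the lowest control for Tie1, and library 7 above the control median. The Tie1 difference was -0.39 (SE 0.204, 95% interval -0.83 to 0.05). Tie1 to Tek stood at 1.78 ± 0.202 (SD, n = 6) in the controls and 1.87 ± 0.195 (SD, n = 6) in the Nfic-/- libraries.

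Of the junction genes, Cdh5, which encodes VE-cadherin, ran from 7.66 through 13.1 to 15.6 RPKM in the controls and from 3.37 through 9.37 to 12.1 RPKM in the Nfic-/- libraries. Nfic-/- libraries 6 and 8 again lay below all controls, and no Nfic-/- library passed the control median. The Cdh5 difference was -0.55 in log2(RPKM + 1) (SE 0.258, 95% interval -1.10 to 0.009). Pecam1, which encodes the adhesion molecule CD31, ran from 5.20 through 7.59 to 9.75 RPKM in the controls and from 2.29 through 5.59 to 7.92 RPKM in the Nfic-/- libraries. Its difference was -0.47 (SE 0.225, 95% interval -0.96 to 0.01), with Nfic-/- libraries 5, 6 and 8 below the lowest control and library 7 above the control median. The ratio of Cdh5 to Pecam1 was the steadiest of the 6 ratios computed, with a coefficient of variation of 6.60% over 12 libraries where Cdh5 alone varied by 35.4%.

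Cldn5, the tight junction protein claudin-5, ran from 5.18 through 9.63 to 14.2 RPKM in the controls and from 4.16 through 7.59 to 11.01 RPKM in the Nfic-/- libraries. Here too libraries 6 and 8 of the Nfic-/- group were lowest, but 2 Nfic-/- libraries, 7 and 10, passed the control median. The Cldn5 difference was -0.30 in log2(RPKM + 1) (SE 0.244, 95% interval -0.82 to 0.23, adjusted p = 0.99997 in limma after Benjamini-Hochberg correction). Relative to the mean of the other 9 genes, Cldn5 was higher in the Nfic-/- libraries by 0.25 on the log2 RPKM scale, the largest such shift of the 10, and the groups overlapped. The ratio of Cldn5 to Cdh5 was 0.765 ± 0.0867 (SD, n = 6) in the controls and 0.935 ± 0.156 (SD, n = 6) in the Nfic-/- libraries, and its highest value, 1.23, came from Nfic-/- library 6. Emcn, the surface sialomucin endomucin, ran from 1.71 through 2.67 to 3.28 RPKM in the controls and from 1.08 through 2.04 to 3.05 RPKM in the Nfic-/- libraries. Its groups overlapped, with Nfic-/- libraries 6 and 8 lowest and libraries 7 and 10 above the control median. The Emcn difference was -0.30 in log2(RPKM + 1) (SE 0.175, 95% interval -0.68 to 0.08).

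The transcription factor Sox17 ran from 1.06 through 1.36 to 1.64 RPKM in the controls and from 0.407 through 0.965 to 1.33 RPKM in the Nfic-/- libraries. Nfic-/- libraries 5, 6 and 8 lay below all controls, and none passed the control median. Sox17 had the smallest unadjusted p of the 10 genes, 0.0222, with a difference of -0.32 in log2(RPKM + 1) (SE 0.126, 95% interval -0.59 to -0.05, adjusted p = 0.934 in limma after Benjamini-Hochberg correction). With 0.1 RPKM added in place of 1, the Sox17 difference was -0.60. It also rested on the fewest reads, about 136 in Nfic-/- library 6, which is a counting error of 8.57%. Sox18 ran from 7.46 through 9.69 to 10.2 RPKM in the controls and from 2.75 through 7.15 to 9.83 RPKM in the Nfic-/- libraries. The Nfic-/- libraries 5, 6 and 8 lay below the lowest control for Sox18, and library 7 above the control median. The Sox18 difference was -0.53 (SE 0.231, 95% interval -1.02 to -0.03), and the ratio of Sox18 to Sox17 was 6.74 ± 0.727 (SD, n = 6) in the controls and 7.002 ± 0.775 (SD, n = 6) in the Nfic-/- libraries.

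**Figure D2:**
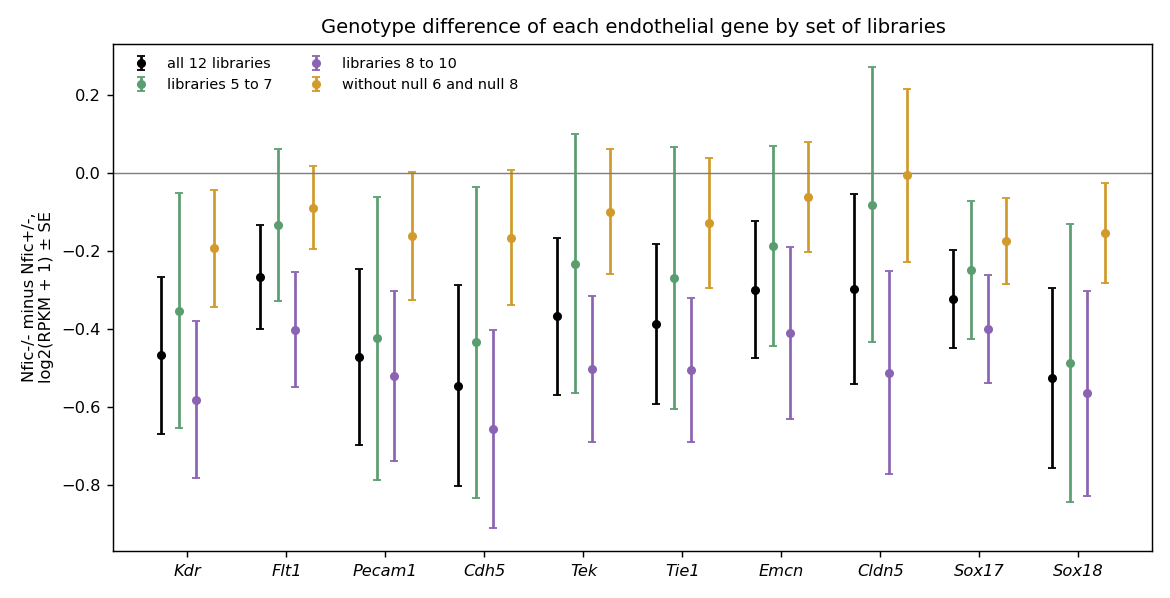
Difference between Nfic-/- and Nfic+/- libraries in log2(RPKM + 1) for each of the 10 genes, for all 12 libraries, for libraries 5 to 7, for libraries 8 to 10 and without Nfic-/- libraries 6 and 8; bars are ± 1 SE from limma. All 10 lie below 0 with all libraries, from -0.55 to -0.27, and closer to 0 without Nfic-/- libraries 6 and 8, from -0.19 to -0.006.

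Single libraries lay far apart. Nfic-/- library 6 was the lowest of the 12 for 10 of 10 genes, a place it took for 27.1% of all tested genes. Nfic-/- libraries 6 and 8 were together the lowest pair for 10 of 10 genes, and for 10.997% of all tested genes. Averaged over the 10 genes, library 6 stood at 0.399 times and library 8 at 0.565 times the mean of the 12 libraries. Nfic+/- library 8 was highest for 6 genes at 1.53 times the mean, and Nfic+/- library 10 was highest for 3 genes. The genotypes were mixed in between, with Nfic-/- library 7 at 1.36 and Nfic+/- library 5 at 0.851 times the mean. Scaling every library to a common median moved libraries by up to 0.277 on the log2 scale and left libraries 6 and 8 of the Nfic-/- group lowest, at 0.476 and 0.620 times the mean.

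Without Nfic-/- libraries 6 and 8, a choice made after seeing the data, the 10 differences ran from -0.19 to -0.006 with a median of -0.14, and 10 of 10 stayed below 0 where 29.3% of all tested genes were. Cldn5 was nearest to 0. Leaving out Nfic-/- library 6 alone gave a median of -0.24. The sample numbers in the column names repeat between libraries 5 to 7 and libraries 8 to 10, so each set was also read alone. Libraries 5 to 7 alone gave a median difference of -0.26, with 10 of 10 genes below 0 where 59.3% of all tested genes were. Libraries 8 to 10 alone gave a median of -0.51, with 10 of 10 below 0 where 44.3% of all tested genes were. The difference between the sets was not tested. Without libraries 8 and 9 of both genotypes, which held the intestinal transcripts, the median was -0.27. There 10 of 10 were below 0 where 58.9% of all tested genes were.

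**Figure D3:**
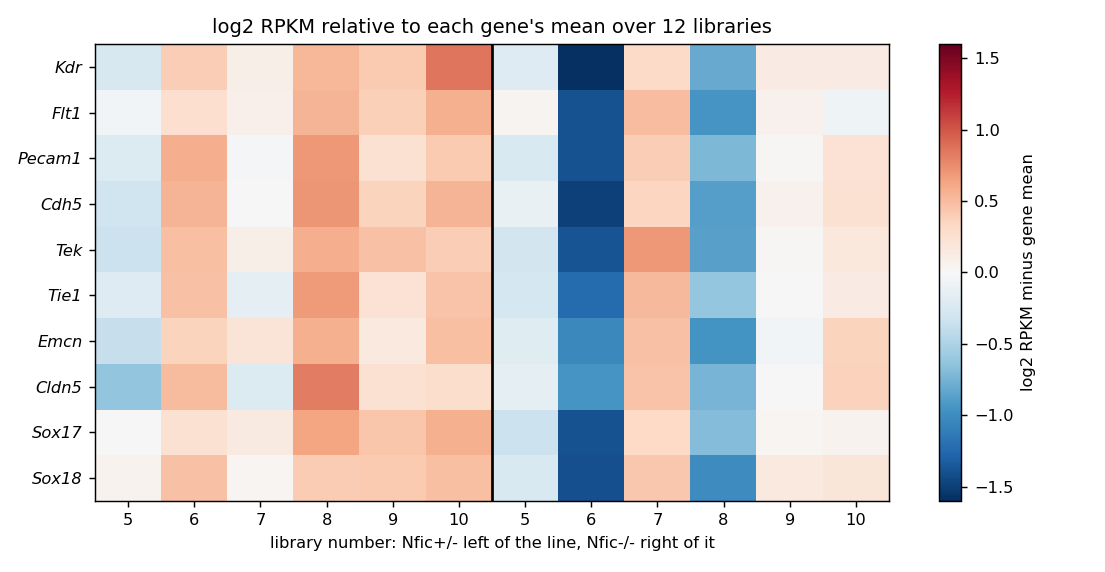
Level of each of the 10 genes (rows) in each library (columns), as log2 RPKM relative to the gene's mean over 12 libraries. Columns are nearly uniform in colour, with Nfic-/- libraries 6 and 8 low for 10 of 10 genes.

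The 10 genes varied together. Over the 45 pairs of genes, the Pearson correlation of log2(RPKM + 1) across 12 libraries ran from 0.854 to 0.991 with a median of 0.9504. The median was 0.939 after removing the genotype means and 0.859 without Nfic-/- libraries 6 and 8. All pairs share the same libraries and scaling, and the mean correlation over all pairs of tested genes was 0.368, so part of any such value is common to the whole table. With profiles this alike, counts over the 10 genes, in any set of libraries, are not counts of separate observations. The shares of all tested genes given beside them describe the table and are not a test.

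The genes outside the 10 with the most similar profile were found by the correlation of log2(RPKM + 1) with the mean standardised level of the 10 over 12 libraries. They were Mmrn2 (r = 0.9896), Scarf1 (r = 0.988), Cd93 (r = 0.987), Podxl (r = 0.984), Esam (r = 0.983), Plvap (r = 0.980), Cd34 (r = 0.976), Robo4 (r = 0.975), Rasip1 (r = 0.974) and Mfng (r = 0.970). Esam is an endothelial adhesion molecule, Plvap forms the diaphragms of fenestrated capillaries and Robo4 is an endothelial guidance receptor. Of all tested genes, 0.943% reached r = 0.9, the 10 genes included. At the other end, Tubb6 (r = -0.942) and Sgk3 (r = -0.924), named after their values were seen, were the genes at -0.9 or below.

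**Figure D4:**
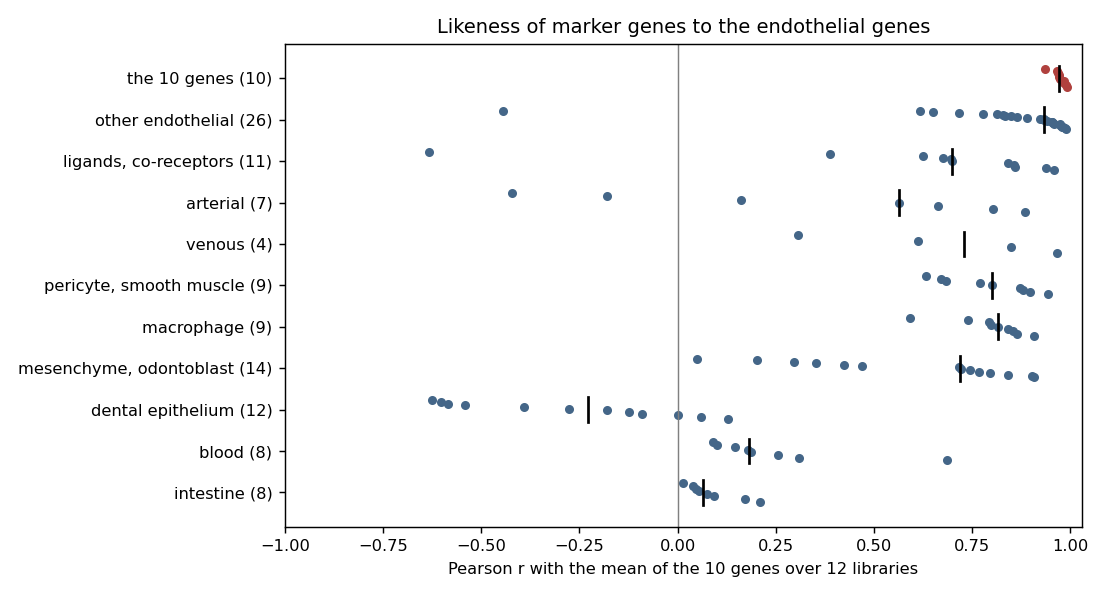
Correlation (r over 12 libraries) of each tested gene of the marker lists with the mean standardised level of the 10 endothelial genes; the number tested is in brackets and the vertical mark is the median. The 10 genes themselves are part of that mean. Other endothelial genes cluster near their median of 0.934, and dental epithelial genes have the lowest median of the lists plotted, -0.228.

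Of 31 other pan-endothelial genes, 26 were tested, 0 passed the test in limma (5 had an unadjusted p under 0.05), 25 were below 0 and the median difference was -0.29. Over all tested genes, 5.34% had an unadjusted p under 0.05 in either direction, 51.1% were below 0 and the median was -0.003. The list's median was -0.15 without both libraries numbered 6. Without Nfic-/- libraries 6 and 8 it was -0.10, with 20 of 26 below 0 where 29.3% of all tested genes were. Ptprb, an endothelial phosphatase that acts on Tek, was 1.72 ± 0.375 RPKM (SD, n = 6) in the controls and 1.21 ± 0.257 RPKM (SD, n = 6) in the Nfic-/- libraries, with overlapping groups. The exception was Gpr4, a proton-sensing receptor, at 16.1 ± 5.43 RPKM (SD, n = 6) in the controls and 19.2 ± 2.04 RPKM (SD, n = 6) in the Nfic-/- libraries. Its profile ran against the 10 genes (r = -0.444), although it was the most abundant gene of its list. Ramp2, a partner protein of the adrenomedullin receptor, was nearly level, with a difference of -0.01 in log2(RPKM + 1).

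Of 14 VEGF and angiopoietin ligands and co-receptors, 11 were tested, 0 passed in limma (3 had an unadjusted p under 0.05), 8 were below 0 and 3 above. Over all tested genes, 5.34% had an unadjusted p under 0.05 and 51.1% were below 0. The median difference of the list was -0.27. That median was -0.15 without both libraries numbered 6 and -0.08 without Nfic-/- libraries 6 and 8. The VEGF co-receptor Nrp1 was 4.38 ± 0.971 RPKM (SD, n = 6) in the controls and 2.87 ± 1.08 RPKM (SD, n = 6) in the Nfic-/- libraries (difference -0.50, SE 0.183, adjusted p = 0.934 in limma after Benjamini-Hochberg correction). Apln, a ligand made by growing vessel tips, differed by -0.46 and the semaphorin receptor Plxnd1 by -0.50 in log2(RPKM + 1). Of the ligands, Vegfa was 5.25 ± 0.551 RPKM (SD, n = 6) in the controls and 5.40 ± 0.882 RPKM (SD, n = 6) in the Nfic-/- libraries, and Angpt1, the activating ligand of Tek, was 10.7 ± 2.49 and 11.99 ± 2.43 RPKM (SD, n = 6 each). Angpt4, another Tek ligand, lay below all controls in 5 of 6 Nfic-/- libraries, at 0.360 to 1.202 RPKM, and at 7.36 RPKM in the other one, library 10.

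Arterial and venous genes had medians closer to 0, and their profiles were less like that of the 10 genes. The median r with the mean of the 10 was 0.564 for arterial and 0.730 for venous genes, against 0.934 for other endothelial genes. Jag1 had r = -0.422 and Slc16a1 r = 0.307. How much of the RNA of these lists came from vessels was not tested. Of 7 tested arterial genes 4 were below 0, against 51.1% of all tested genes. The arterial median was -0.03, or 0.003 after scaling to a common median. Among the arterial genes the Notch ligand Dll4 differed by -0.33 and Jag1 by 0.19 in log2(RPKM + 1). Of 4 tested venous and capillary genes 4 were below 0, against 51.1% of all tested genes. The venous median was -0.11, or 0.05 without both libraries numbered 6. Aplnr, the receptor of Apln, had the largest venous difference at -0.49 and the highest r of that list, 0.967. Only 2 lymphatic genes were tested, Pdpn and Lyve1, and both are also expressed outside lymphatic vessels. None of these genes had an adjusted p under 0.05.

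Marker genes of other cell types also differed between these libraries, and none of them passed the test. Over all tested genes, 51.1% were below 0. The 10 endothelial genes summed to 37.4 to 70.2 RPKM in the controls and 18.1 to 60.2 RPKM in the Nfic-/- libraries. Pericyte and smooth muscle genes, of which 9 of 12 were tested and 7 were below 0 (median -0.46, 3 with an unadjusted p under 0.05, against 5.34% of all tested genes), summed to 54.4 to 134 RPKM in the controls and 33.6 to 98.3 RPKM in the Nfic-/- libraries. Rgs5, a pericyte gene, was 21.5 ± 5.48 RPKM (SD, n = 6) in the controls and 12.7 ± 5.33 RPKM (SD, n = 6) in the Nfic-/- libraries. Acta2, of the same list, was above 0 with a difference of 0.05 in log2(RPKM + 1). It was 12.2 ± 1.53 RPKM (SD, n = 6) in the controls and 13.4 ± 5.40 RPKM (SD, n = 6) in the Nfic-/- libraries. Macrophage genes, with 9 of 9 tested below 0 (median -0.46), summed to 34.6 to 83.2 RPKM in the controls and 16.4 to 96.6 RPKM in the Nfic-/- libraries. For libraries 5 to 7 alone the macrophage median was -0.75, for libraries 8 to 10 alone -0.18. Without both libraries numbered 6 it was -0.18, and without Nfic-/- libraries 6 and 8 it was -0.11 with 7 of 9 below 0, where the pericyte median was -0.26. Dental mesenchyme and odontoblast genes, with 14 of 14 below 0 (median -0.49, 11 with an unadjusted p under 0.05, against 5.34% of all tested genes), summed to 4291 to 5989 RPKM in the controls and 2443 to 5175 RPKM in the Nfic-/- libraries. Dental epithelial genes lay on the other side of 0, with 12 of 12 tested above 0 (median 0.28, 4 with an unadjusted p under 0.05). For libraries 5 to 7 alone the epithelial median was 0.48, for libraries 8 to 10 alone 0.14, where the mesenchyme medians were -0.73 and -0.36. Without Nfic-/- libraries 6 and 8 the mesenchyme median was -0.37 with 14 of 14 below 0. The epithelial median was then 0.31 with 1 of 12 below 0, and 29.3% of all tested genes were below 0. The part of tissue composition in the endothelial differences was not tested.

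**Figure D5:**
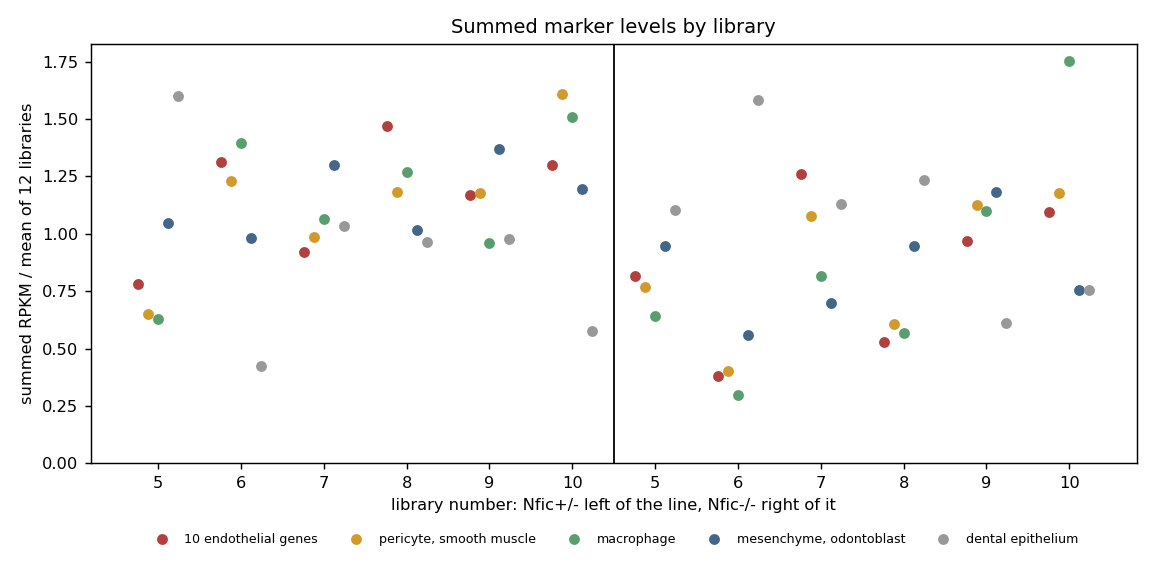
Summed RPKM of the 10 endothelial genes and of 4 marker lists in each library, each divided by its mean over 12 libraries. Nfic-/- libraries 6 and 8 have the lowest endothelial, pericyte and macrophage sums. Nfic+/- library 5 is close to Nfic-/- library 8 for pericyte genes (54.4 and 50.7 RPKM) and macrophage genes (34.6 and 31.2 RPKM). The dental epithelial sum is highest in Nfic+/- library 5, followed by Nfic-/- library 6, and the mesenchyme sum is lowest in Nfic-/- library 6. Amelx makes up most of the epithelial sum, with 106179 of 143357 RPKM in Nfic+/- library 5. Other genes of that list can differ: Krt14 is 511 RPKM there and highest in Nfic-/- library 7, at 776 RPKM.

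Red cell and platelet genes stood on opposite sides of 0 in the sets of libraries. In libraries 5 to 7, 8 of 8 tested were below 0 with a median of -0.52, where 59.3% of all tested genes were below 0. In libraries 8 to 10, 1 of 8 was below 0 with a median of 0.52, where 44.3% of all tested genes were below 0. With all libraries 3 of 8 were below 0, against 51.1% of all tested genes, and the median was 0.02. The difference between the sets was not tested for this list. Of 8 tested genes of the response to low oxygen, 4 were below 0 with a median of 0.02, or -0.08 for libraries 5 to 7 alone and 0.07 for libraries 8 to 10 alone. No gene of either list had an adjusted p under 0.05 (limma, Benjamini-Hochberg). At an unadjusted p under 0.05 there were 0 and 1, against 5.34% of all tested genes.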

How the data were processed

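The deposited table holds log2 RPKM for 25899 genes in 12 libraries. Per the submitters' processing notes, the authors aligned reads with TopHat2 to mm10, and with the counting tool and annotation not given in the sources used here, gene lengths could not be checked. The base of the log was read from the values: with base 2 the genes account for 0.773 to 0.835 of the reads in a library, with base e for 8.23 to 28.4 times the reads. Genes without reads carry a floor of 0.9 reads, and 94.4% of 14367 low values were whole reads within 0.02. Depth, read numbers and counting errors were estimated from that floor with exon lengths of GENCODE M21. Gene positions came from GENCODE M21 (GRCm38), which matched 24987 genes.

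Values were returned to RPKM and tested as log2(RPKM + 1) with limma 3.58.1 in R 4.3.3. The fit had an intensity trend and genotype as its term, over 12094 genes with a mean of at least 1 RPKM, with Benjamini-Hochberg correction at a threshold of 0.05. The script was tested on simulated data. Linear RPKM had been assumed when the test was chosen, so the log was undone first. The series speaks of littermate pairs, and each library was taken as a separate animal. The 10 genes, the marker lists and the tests were chosen with earlier results of these data known. Besides the 10, the genes eligible to be named were the 3 most abundant and the 3 of smallest p in each vessel list, the 10 of most similar profile, and Nfic. Vegfa, Krt14, Amelx, Erg, Tubb6 and Sgk3 are outside that rule and were named with their values known.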

Additional observations from a re-analysis of the deposited data

Results flagged for a closer look

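Across 82 groups of 6 libraries (41 genes in each genotype), 5 had 1 library that stood apart from the other 5 by Dixon's criterion, and chance gives about 1 in 20 groups. None was among the 10 endothelial genes. Of the 5, 4 were in Nfic-/- library 10. There Angpt4 was 7.36 RPKM against 1.202 in the nearest library, Lyve1 was 3.49 against 1.032, Kcnj8 was 24.2 against 7.42, and Erg, named after its values were seen, was 5.83 against 2.40. Angpt4 was as high in Nfic+/- library 10, at 7.34 RPKM, and Lyve1 stood at 3.57 RPKM there. The fifth was Slc16a1 in Nfic+/- library 6, at 11.97 RPKM against 7.75 in the nearest library.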

How the results depend on the processing

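The 10 endothelial genes kept a difference below 0 in every alternative in which they were tested, 26 in all, though under a filter of mean RPKM at least 5 only Pecam1, Cdh5, Cldn5 and Sox18 were tested. Over these alternatives the share of all tested genes below 0 ran from 25.8% to 65.7%. None of the 10 passed the threshold in any alternative, and the smallest adjusted p was 0.0859, for Sox17 with library weights (limma, Benjamini-Hochberg). With 0.1 RPKM added in place of 1, the differences ran from -0.65 to -0.33, and the gene with the largest was Kdr in place of Cdh5. Leaving out 1 library at a time gave a median difference of -0.51 to -0.24, nearest to 0 without Nfic-/- library 6. The number of the 10 with an unadjusted p under 0.05 was 3 in the fit described above. It was 0 without library 8 of either genotype and 9 without Nfic+/- library 5 or Nfic-/- library 7. With all 12 libraries it was 7 after scaling to a common median and 7 after scaling without the 1% most abundant genes. It was 6 with library weights and 1 without the filter on low values. Of all 12094 tested genes, 534 reached that level without Nfic+/- library 8 and 537 without Nfic-/- library 8. Without Nfic+/- library 5, 1075 of all tested genes did, and without Nfic-/- library 7, 593 did. The numbers were 1157 and 1088 after those scalings and 2263 with library weights. Without the filter on low values, 926 of 21002 genes reached it. With library weights 17 genes of the table passed, 9 higher and 8 lower, against 0 without weights, where 646 had an unadjusted p under 0.05. Of the dental epithelial list 1 gene, Krt14, passed with library weights; the cause was not tested. Scaling to a common median moved the share of genes below 0 from 51.1% to 39.5%.

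Same-numbered libraries were checked for pairing by their deviations from the group means, which correlated at 0.492, 0.00502, 0.310, 0.667, 0.688 and 0.802 for numbers 5 to 10. Number 6 did not pass 0.1, and the own number was the best match in both directions for 3 of 6 numbers. With library number as a replicate block 0 genes were called, 981 had an unadjusted p under 0.05, and the smallest adjusted p of the 10 genes was 0.505. The counting error of the 10 genes was at most 8.57%, for Sox17.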
